A study of Mus musculus with 12 samples.

Results

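The proteasome subunit genes are the 34 mouse genes for the constitutive subunits of the 26S proteasome and the proteins numbered with them: 14 genes of the 20S core (Psma1 to Psma7 and Psmb1 to Psmb7) and 20 genes of the 19S regulatory particle (Psmc1 to Psmc6 and Psmd1 to Psmd14). Members were found by the gene symbol of the array platform, and a member was kept if a probe for it had a detection p-value under 0.05, here called above background, on at least 2 of 12 arrays. This held for 31 members out of 8891 genes tested. Of the other members, Psmd3 had no probe with its symbol, and the probes of Psma1 and Psma6 were above background on 0 of 12 arrays. The 33 members with a probe had 50 probes, of which 44 were above background on at least 2 arrays. Of the tested members, 30 were above background on all 12 arrays and Psmc6 on 5. Psmd8 is described apart from the other 30, because its difference between the cell clones was known when the genes were chosen.

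The proteasome is the protease that degrades proteins tagged with ubiquitin in the cytosol and nucleus. Its 20S core is a barrel of stacked rings: outer α rings gate the entrance and inner β rings carry the cutting sites. The 19S particle caps the barrel, with receptors that bind ubiquitin chains, a deubiquitinase that removes them, and a ring of ATPases that unfolds the substrate and threads it inward. In many cell types the subunit genes are transcribed together, and the transcription factor Nfe2l1 raises them when proteasome activity is low.

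Total RNA was measured on Illumina bead arrays in mouse embryonic fibroblasts of strain C57BL/6, labelled female and immortalized with SV40 large T antigen, all of which holds for every group. One clone, YYFF, carries a mutated β1 integrin, the laminin-binding receptor subunit encoded by Itgb1, and per the labels' protocols cannot complete cytokinesis on a matrix bound through β1 alone. The WT clone carries the normal subunit. The groups were YYFF cells plated on laminin 0 (YYFF L0), 4 (YYFF L4) or 8 times (YYFF L8) and WT cells plated 0 (WT L0), 4 (WT L4) or 8 times (WT L8), with 2 arrays each. Each plating was in serum-free medium overnight, normal medium followed, and the cells were afterwards kept on plastic. The stage label is written as an embryonic day and differs for every sample, with the number after the point rising in sample order. The samples of a genotype come from 1 clone, so these labels were not read as ages. Age was therefore not compared between groups. Each genotype is 1 clone, so genotype and clone cannot be told apart, and neither can laminin plating and time in culture. The title of the series names aneuploidy and gene expression as its subject.

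The arrays had total signals of 13197182 to 17683779, and 40.4% to 45.8% of probes were above background. The 2 arrays of a group correlated across the tested genes with r between 0.987, in YYFF L8, and 0.994. Of 8 fibroblast markers 7 were above background on at least 2 arrays, and Thy1 on none. Their summed signal was 19978 to 23669 in YYFF arrays and 10528 to 15113 in WT arrays, so it was higher in every YYFF array. Of the markers of other cell types with a probe, 0 of 3 leukocyte genes, 1 of 4 endothelial genes (Tek), 1 of 3 muscle genes (Myog), 1 of 2 neural genes (Map2, on all 12 arrays) and 3 of 4 epithelial genes (Krt8, Krt19 and Cdh1) were above background on at least 2 arrays. Ptprc, Adgre1, Lyz2, Pecam1, Cdh5, Kdr, Myod1, Des, Tubb3 and Krt18 were never above it. The summed neural signal was 2052.3 to 2187.4 in YYFF L0 and 342 to 845.7 in the other groups, and the summed epithelial signal was 186.8 to 340 in YYFF arrays and 132.4 to 177.1 in WT arrays. The part of these differences in the results below was not tested. In such bulk RNA, fewer cells that express a gene and less RNA per cell cannot be told apart.

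The promoters of 4 members are shown because their signals carry the results below: Psmd8, which separated the clones, Psma7 and Psmd14, which rose in YYFF cells, and Psmd10, which rose most in WT cells. Each is the RefSeq sequence (build GRCm38.p6) from 250 bases before to 50 bases after the annotated start, 5′ to 3′ on the gene's strand. Capitals mark CCAAT boxes (CCAAT, or ATTGG on the other strand) and GC boxes (GGGCGG, or CCGCCC on the other strand), and overlapping matches run together.
Psmd8, chr7:29180624-29180923, minus strand: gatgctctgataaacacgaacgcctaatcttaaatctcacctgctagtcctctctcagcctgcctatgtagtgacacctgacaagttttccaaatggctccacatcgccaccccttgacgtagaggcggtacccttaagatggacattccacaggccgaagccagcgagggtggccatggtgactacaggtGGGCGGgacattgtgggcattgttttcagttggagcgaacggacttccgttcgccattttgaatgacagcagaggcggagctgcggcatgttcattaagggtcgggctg
Psma7, chr2:180042415-180042714, minus strand: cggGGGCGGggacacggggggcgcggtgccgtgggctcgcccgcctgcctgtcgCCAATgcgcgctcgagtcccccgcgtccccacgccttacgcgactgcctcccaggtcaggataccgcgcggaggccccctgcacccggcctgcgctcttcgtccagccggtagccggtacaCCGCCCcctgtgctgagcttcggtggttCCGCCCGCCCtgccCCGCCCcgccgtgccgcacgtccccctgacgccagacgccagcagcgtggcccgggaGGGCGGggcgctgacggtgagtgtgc
Psmd10, chrX:140956662-140956961, minus strand: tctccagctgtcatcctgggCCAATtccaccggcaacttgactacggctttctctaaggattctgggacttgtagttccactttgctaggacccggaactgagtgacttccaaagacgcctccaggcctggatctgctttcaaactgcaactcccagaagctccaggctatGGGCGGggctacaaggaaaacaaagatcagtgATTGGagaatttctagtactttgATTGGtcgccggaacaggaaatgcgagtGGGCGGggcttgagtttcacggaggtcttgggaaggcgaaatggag
Psmd14, chr2:61711444-61711743, plus strand: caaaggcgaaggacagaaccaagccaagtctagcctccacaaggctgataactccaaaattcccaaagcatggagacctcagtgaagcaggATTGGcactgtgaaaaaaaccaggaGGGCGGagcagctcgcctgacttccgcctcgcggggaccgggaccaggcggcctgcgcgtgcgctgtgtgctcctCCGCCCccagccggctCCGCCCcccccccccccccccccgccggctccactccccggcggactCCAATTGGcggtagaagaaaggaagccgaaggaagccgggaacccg

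The promoter table matched 28 of the 34 members, with 30 promoters, and did not list Psmb1, Psmb2, Psmb7, Psmc3, Psmd3 or Psmd7. A CCAAT box on either strand was in 11 of these 30 promoters (36.7%), against 37.8% of promoters of the genes tested and 37.4% of all 32851 promoters in the table. A GC box was in 18 of 30 (60.0%), against 62.0% of promoters of the genes tested and 35.7% of all promoters. The ETS core CCGGAAG, on either strand, was in 11 of 30 (36.7%), against 17.1% of promoters of the genes tested and 8.86% of all promoters. The core of the antioxidant response element, TGACNNNGC on either strand, which Nfe2l1 and its relatives can bind, was in 5 of 30 (16.7%), against 13.8% of promoters of the genes tested and 12.4% of all promoters, and the genes were Psmb5, Psmb6, Psmc6, Psmd9 and Psmd12. Of the 10 members that rose in YYFF L8, all have a promoter in the table, and 5 of those promoters held a CCAAT box, 2 the antioxidant core, 3 the ETS core and 6 a GC box. Of the 17 promoters of the other tested members, 4 held a CCAAT box, 3 the antioxidant core, 7 the ETS core and 11 a GC box. These are matches of letters within these windows, and binding was not measured.

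Psmd8 separated the clones by far more than any other member. It encodes a lid subunit of the 19S particle and lies on chromosome 7. Its normalized log2 signal was 12.11 and 12.32 in YYFF L0, 12.80 and 12.86 in YYFF L4, and 12.48 and 12.87 in YYFF L8. In WT cells it was 8.34 and 9.32 in WT L0, 7.76 and 8.03 in WT L4, and 7.68 and 8.21 in WT L8. All 6 YYFF arrays lay above all 6 WT arrays, and the probe was above background on every array. As deposited, before any correction, the probe's signal was 4240 to 8120 units in YYFF arrays and 249 to 691 units in WT arrays. The log2 difference YYFF minus WT was 3.39 ± 0.30 at L0, 4.94 ± 0.30 at L4 and 4.73 ± 0.30 at L8 (± SE from the limma model, as for every ± on a log2 change below), that is 10.5-fold, 30.6-fold and 26.6-fold. Among the 8891 genes, ranked by their log2 difference in favour of YYFF, Psmd8 stood at 29 at L0, 6 at L4 and 8 at L8. Only 1 probe measured the gene, so no second probe could be set beside it.

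**Figure D1:**
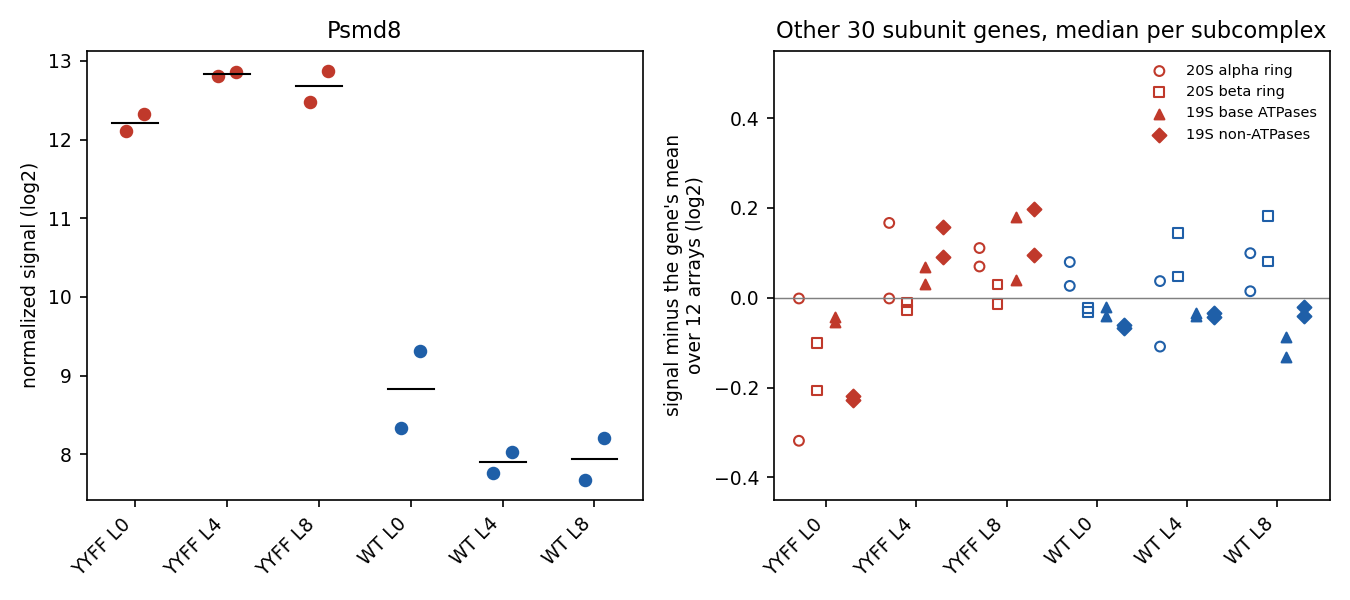
Left, normalized log2 signal of Psmd8 on each array (points, 2 per group; lines, group means) in YYFF (red) and WT (blue) cells after 0, 4 or 8 platings on laminin. Right, the median over the other 30 tested subunit genes of each subcomplex after each gene was centred on its own mean over 12 arrays; Psmd8 differs between the clones by 3.39 to 4.94 on the log2 scale, while the medians on the right, which use another scale, stay between -0.32 and 0.20.

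The genes beside Psmd8 differed between the clones in both directions. Of the 20 tested genes nearest to it on chromosome 7, 10 on each side, 5 were higher and 2 lower in YYFF L0 than in WT L0. Over all genes 14.7% were higher and 12.2% lower. At L0, 13 of the 20 were above background on all 4 arrays, and of these 3 were higher and 2 lower, with a median log2 difference of 0.03 and a range of -1.08 to 1.20. The range ended at Nfkbib, an inhibitor of NF-κB (-1.08 ± 0.14, adjusted p = 0.000617), and at Ech1, an enzyme of fatty acid oxidation (1.20 ± 0.10, adjusted p = 4.3e-05). At L8, 2 of the 20 were higher and 3 lower in YYFF cells, where 17.2% of all genes were higher and 19.8% lower. Of the 20, 11 were above background on all 4 arrays, of which 2 passed, both lower in YYFF L8, with a median over the 11 of -0.14. Where a gene was above background on no array of a group, only a bound can be given. It sets the mean of the brighter group against, on each array of the dimmer group, whichever is higher, its own value or the lowest value of any probe above background. Zfp420, a zinc finger gene, was above background on both YYFF L0 arrays and 0 of 2 WT L0 arrays, and was at least 3.15-fold higher in YYFF L0 (adjusted p = 7.82e-06). The nearest tested neighbours on either side were Kcnk6, at least 1.16-fold higher in YYFF L0 (adjusted p = 0.007) and not above background in WT L0, and Spred3, not above background in either. The 2 genes higher in YYFF L8 were Kcnk6, by at least 1.71-fold (adjusted p = 0.00032), and Zfp420, by at least 2.36-fold (adjusted p = 9.68e-06). Neither was above background in WT L8. Zfp30, also a zinc finger gene, was lower in YYFF L0, with a difference of -1.08 ± 0.26 (adjusted p = 0.0156), and at L8 it was above background on 1 of 2 YYFF arrays.

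The distance between the clones in Psmd8 was larger after laminin than before it. In YYFF cells the L4 arrays lay above the L0 arrays by 0.62 ± 0.30 (adjusted p = 0.16) and the L8 arrays by 0.46 ± 0.30 (adjusted p = 0.277), neither past the threshold of 0.05 after Benjamini-Hochberg adjustment over all genes. In WT cells the difference was -0.93 ± 0.30 for L4 (adjusted p = 0.0722), and -0.88 ± 0.30 for L8 (adjusted p = 0.0484), a fall of 1.84-fold. The YYFF change minus the WT change was 1.55 ± 0.43 for L4 (adjusted p = 0.0295), and 1.34 ± 0.43 for L8 (adjusted p = 0.0412). The WT L0 arrays differed from each other by more than those of any other group. The fall in WT L8 lost its call without WT L0 replicate 2 (-0.39), WT L8 replicate 1 (-0.62) or WT L8 replicate 2 (-1.15). The difference at L4 was held only without WT L0 replicate 1 and lost its call without any other array of the comparison (1.05 to 1.68). At L8 it was lost without WT L0 replicate 2 (0.85), WT L8 replicate 1 (1.08), YYFF L0 replicate 1 (1.24) or 2 (1.45), or YYFF L8 replicate 2 (1.15).

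Itgb1 itself was measured on every array, and its mean log2 signal in YYFF cells was 9.05 ± 0.21 at L0, 9.11 ± 0.08 at L4 and 8.83 ± 0.04 at L8, and in WT cells 9.07 ± 0.05 at L0, 8.55 ± 0.25 at L4 and 8.31 ± 0.13 at L8 (± SD, n = 2 each). The mutation changes codons, so this signal does not check the genotype.

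Among the other 30 subunit genes, every change that passed the test in YYFF cells plated on laminin was a rise, and most members did not pass. In YYFF L4, 8 were higher than in YYFF L0 and 0 lower, or 26.7%, where 14.4% of all genes tested were higher and 17.2% lower by the same limma call. In YYFF L8, 10 were higher and 0 lower, or 33.3%, where 17.1% of all genes were higher and 19.3% lower. At an unadjusted p under 0.05 the members higher were 10 in YYFF L4 and 14 in YYFF L8, with 0 lower in each. The median log2 change of the 30 was 0.18 at L4 and 0.25 at L8, beside 0.02 and 0.03 over all genes, and 25 of the 30 had a change above 0 at each time, beside 51.6% and 52.2% of all genes. Both comparisons share the YYFF L0 arrays, so they are not independent of each other. When each array was scaled to a common median in place of quantile normalization, the median change of all 31 members was larger, at 0.37 for L4 and 0.34 for L8, beside 0.19 and 0.27. Fewer changes passed: 2 of 31 were higher in YYFF L4, Psma5 and Psmd8, where 8.49% of all genes were higher and 11.6% lower, and 2 in YYFF L8, Psma7 and Psmd14, where 8.94% were higher and 15.6% lower. The share of members called also depended on single arrays. In YYFF L4 it was 12.9% of 31 without YYFF L0 replicate 1, beside 9.49% of all genes, and 6.45% without YYFF L0 replicate 2 or either YYFF L4 replicate, beside 9.18% to 9.49%. In YYFF L8 it was 16.1% without YYFF L0 replicate 1, beside 11.1% of all genes, 12.9% without YYFF L0 replicate 2, beside 11.2%, 19.4% without YYFF L8 replicate 1, beside 15.3%, and 22.6% without YYFF L8 replicate 2, beside 14.8%. Without YYFF L8 replicate 2, 1 member was lower.

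In WT cells the same genes showed no common direction. In WT L4, 2 of 30 were higher than in WT L0 and 0 lower (2 lower at an unadjusted p under 0.05), where 7.49% of all genes were higher and 7.99% lower. In WT L8, 2 were higher and 0 lower (4 lower at an unadjusted p under 0.05), where 18.4% of all genes were higher and 17.7% lower. The medians of the 30 were 0.03 at both times, and 17 of 30 at L4 and 16 of 30 at L8 had a change above 0. Between the later times few members differed. YYFF L8 and YYFF L4 had 0 members apart in the limma test (3 higher and 2 lower at an unadjusted p under 0.05), where 0.405% of all genes were higher and 1.03% lower. WT L8 had 1 member higher than WT L4, Psmd10, and 0 lower (1 lower at an unadjusted p under 0.05), where 10.8% of all genes were higher and 8.86% lower.

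**Figure D2:**
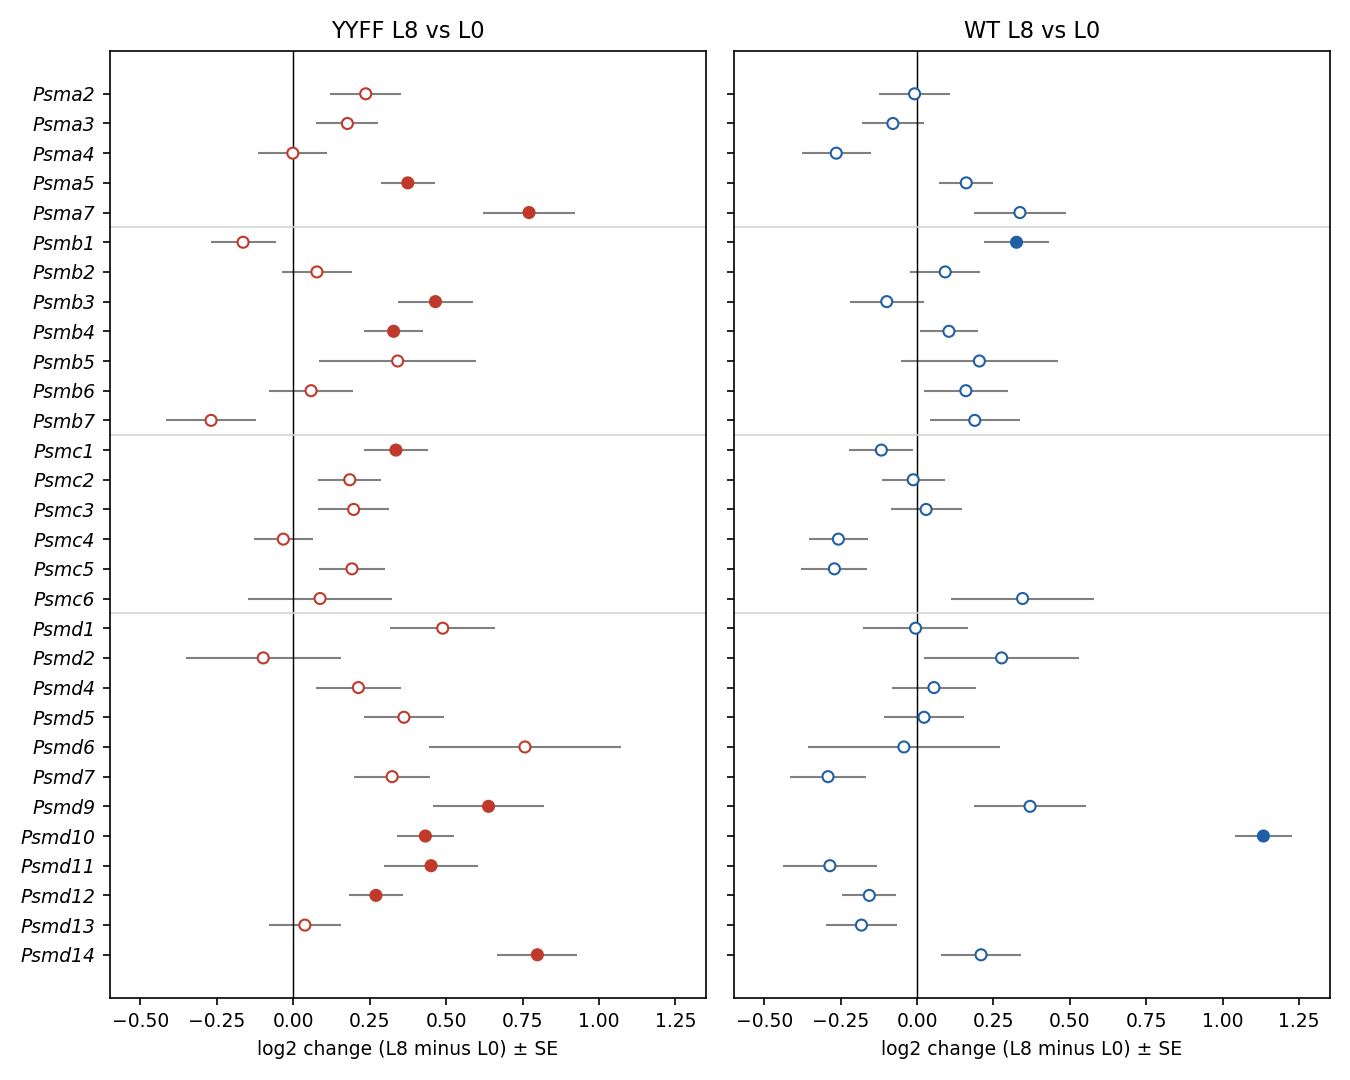
Log2 change (L8 minus L0) ± SE of each of the 30 tested subunit genes other than Psmd8 in YYFF cells (left, red) and WT cells (right, blue), grouped from top to bottom into the 20S α ring, 20S β ring, 19S ATPases and 19S non-ATPases; filled points passed an adjusted p of 0.05. In YYFF cells 10 points are filled, all above 0, and in WT cells 2 are, Psmb1 and Psmd10.

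In the α ring, Psma5 and Psma7 rose in YYFF cells. Psma5 had log2 signals of 13.42 and 13.31 in YYFF L0, 13.87 and 13.88 in YYFF L4, and 13.71 and 13.77 in YYFF L8, against 13.65 and 13.63 in WT L0, 13.78 and 13.79 in WT L4, and 13.84 and 13.76 in WT L8. The 2 YYFF L0 arrays were the lowest of the 12. Its YYFF change from L0 was 0.50 ± 0.09 at L4 (1.42-fold, adjusted p = 0.00242), and the L8 change was 0.37 ± 0.09 (adjusted p = 0.0098). Psma7 had 11.82 and 11.66 in YYFF L0, 12.37 and 12.27 in YYFF L4, and 12.64 and 12.39 in YYFF L8, and 12.04 and 11.92 in WT L0, 12.27 and 11.98 in WT L4, and 12.45 and 12.18 in WT L8. Its YYFF change was 0.58 ± 0.15 at L4 (adjusted p = 0.0171), and the L8 change was 0.77 ± 0.15 (1.71-fold, adjusted p = 0.00349). The L4 call was lost without YYFF L0 replicate 2 (0.49) or either YYFF L4 replicate (0.53 and 0.62), and the L8 call was held without any 1 array. The WT L8 arrays also lay above the WT L0 arrays, by 0.34 ± 0.15, which did not pass, and the clones' changes at L8 did not differ past the threshold. A second Psma7 probe gave 0.49 ± 0.16 at L4 and 0.68 ± 0.16 at L8 in YYFF cells. Psma2, Psma3 and Psma4 did not pass in either clone, and the YYFF L8 change was 0.24 ± 0.12 for Psma2 and 0.18 ± 0.10 for Psma3.

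The β ring holds the catalytic subunits Psmb5, Psmb6 and Psmb7, with chymotrypsin-like, caspase-like and trypsin-like activity in turn, and 4 subunits without a cutting site. Psmb3 and Psmb4, both without one, rose in YYFF L8. Psmb3 had 13.38 and 13.02 in YYFF L8, against 12.73 and 12.74 in YYFF L0, a change of 0.47 ± 0.12 (adjusted p = 0.0157). In WT cells Psmb3 lay within 13.01 to 13.15 on all 6 arrays. Psmb4 changed by 0.33 ± 0.10 in YYFF L8 (adjusted p = 0.0256). No catalytic subunit passed in YYFF cells: the L8 changes were 0.34 ± 0.26 for Psmb5, 0.06 ± 0.14 for Psmb6 and -0.27 ± 0.15 for Psmb7. In WT cells Psmb6 was higher at L4, with 12.92 and 12.58 in WT L4 against 12.24 and 12.29 in WT L0 (0.48 ± 0.14, adjusted p = 0.0465), and Psmb1 at L8, with 12.80 and 12.85 in WT L8 against 12.42 and 12.58 in WT L0 (0.33 ± 0.11, adjusted p = 0.0408). The Psmb3 call was lost without either YYFF L0 replicate (0.46 and 0.47) or YYFF L8 replicate 1 (0.29). The Psmb6 call was lost without either WT L0 replicate (0.45 and 0.51) or WT L4 replicate 1 (0.31), and the Psmb1 call without any 1 of its 4 arrays (0.25 to 0.41). Psmb2 did not pass in any comparison.

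The 3 probes of Psmb7 did not move alike. In YYFF L8 vs L0 they gave log2 changes of -0.27 ± 0.15, 0.01 ± 0.13 and 0.43 ± 0.12 in order of falling brightness, so the direction of this gene depends on the probe. Over the 11 members with more than 1 probe above background, the 13 dimmer probes had the sign of the brightest in 11 cases in YYFF L4 and 10 in YYFF L8, and in 10 in WT L8. Psmb2, Psmc5, Psmd2 and Psmd6 were among these genes, and their probes gave YYFF L8 changes of 0.08 and 0.04, 0.19 and 0.17, -0.10 and 0.40, and 0.76 and 1.03.

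Of the ring of 6 ATPases, Psmc1 alone passed in YYFF cells, at L8. It had 11.24 and 11.25 in YYFF L8, against 10.87 and 10.94 in YYFF L0, and a change of 0.34 ± 0.10 (adjusted p = 0.0329). On the WT arrays it stayed between 10.66 and 10.92. The median of the 6 ATPases was 0.19 in YYFF L8 and -0.06 in WT L8. Psmc4 and Psmc5 had WT L8 changes of -0.26 ± 0.10 and -0.27 ± 0.11, which passed only at the unadjusted p, and Psmc2 and Psmc3 passed in no comparison. Psmc6 was near background, with log2 signals of 5.24 to 6.10, and was above background on both arrays of YYFF L0 and WT L8 alone, on 1 array of WT L4 and on none of the other groups, so it gives no usable comparison.

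Among the 13 non-ATPase genes of the 19S list, 12 without Psmd8, 6 were higher in YYFF L4 (50%) and 5 in YYFF L8 (41.7%). Over all genes 14.4% and 17.1% were, and in the α ring 2 of 5 were at each time (40%). The medians of the 12 were 0.37 and 0.40. In WT L8 1 of the 12 was higher (8.33%), beside 18.4% of all genes, with a median of 0.01. The difference between the subcomplexes was not tested. Several of these proteins belong to the lid, which removes ubiquitin. Psmd14 is its zinc-dependent deubiquitinase, Psmd7 its partner without enzymatic activity, and Psmd11 and Psmd12 are scaffold subunits. Others, Psmd5, Psmd9 and Psmd10, are chaperones that hold the ATPases during assembly of the base and leave the finished particle.

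Psmd14 had the largest change of the 31 genes in YYFF L8. Its log2 signal was 10.01 and 9.98 in YYFF L0, 10.33 and 10.36 in YYFF L4, and 10.78 and 10.80 in YYFF L8. In WT cells it was 9.79 and 10.04 in WT L0, 9.95 and 10.23 in WT L4, and 10.02 and 10.23 in WT L8. The YYFF groups did not overlap one another, and both YYFF L8 arrays exceeded all other arrays. The YYFF L8 change was 0.80 ± 0.13 (1.74-fold, adjusted p = 0.00137), the WT L8 change was 0.21 ± 0.13 and did not pass, and the test of the difference between them gave 0.59 ± 0.18 (adjusted p = 0.0388). The YYFF L8 call was held without any 1 array (0.78 to 0.82).

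Psmd11 and Psmd12 rose at both times in YYFF cells. Psmd11 had 8.81 and 8.99 in YYFF L0, 9.44 and 9.51 in YYFF L4, and 9.18 and 9.52 in YYFF L8, against 9.04 and 9.15 in WT L0, 9.05 and 8.92 in WT L4, and 8.64 and 8.98 in WT L8. Its YYFF changes were 0.57 ± 0.15 at L4 (adjusted p = 0.019), and the L8 change was 0.45 ± 0.15 (adjusted p = 0.0461), and a dimmer probe gave 1.14 ± 0.56 and 1.34 ± 0.56. The L4 call was lost without YYFF L0 replicate 1 (0.49) or either YYFF L4 replicate (0.61 and 0.54), and the L8 call without either YYFF L0 replicate (0.36 and 0.54) or YYFF L8 replicate 2 (0.28). Psmd12 changed by 0.29 ± 0.09 at L4 (adjusted p = 0.0321), and the L8 change was 0.27 ± 0.09 (adjusted p = 0.0406), with 0.49 ± 0.31 and 1.18 ± 0.31 from a dimmer probe. Psmd7 did not pass in YYFF cells, with an L8 change of 0.32 ± 0.12 and of 0.88 ± 0.23 from a dimmer probe. Psmd1, one of the large scaffold subunits of the base, had 8.70 and 9.04 in YYFF L4, against 8.20 and 8.47 in YYFF L0, and rose by 0.53 ± 0.17 (adjusted p = 0.0412), a call lost without either YYFF L0 replicate (0.40 and 0.67) or YYFF L4 replicate 2 (0.36).

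The 3 assembly chaperones were each higher in YYFF L4. Psmd5 had 10.08 and 9.85 in YYFF L4, against 9.42 and 9.31 in YYFF L0, a change of 0.60 ± 0.13 (1.51-fold, adjusted p = 0.0075), and 9.51 and 9.25 in WT L4, against 9.50 and 9.46 in WT L0. In YYFF L8 its change was 0.36 ± 0.13 and did not pass. Psmd9 changed by 0.55 ± 0.18 in YYFF L4 (adjusted p = 0.0478) and 0.64 ± 0.18 in YYFF L8 (adjusted p = 0.0228). A second Psmd9 probe gave 0.42 ± 0.18 and 0.13 ± 0.18. The Psmd5 call was lost without YYFF L0 replicate 2 (0.54) or YYFF L4 replicate 1 (0.48). The Psmd9 call at L4 was lost without any 1 array (0.47 to 0.63), and that at L8 without either YYFF L0 replicate (0.57 and 0.70) or YYFF L8 replicate 1 (0.56). Psmd4, a ubiquitin receptor, and Psmd2, Psmd6 and Psmd13 did not pass in any comparison.

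Psmd10, also known as gankyrin and able to bind the retinoblastoma protein, rose in both clones and most in WT cells. Its log2 signal was 10.44 and 10.38 in YYFF L0, 10.77 and 10.81 in YYFF L4, and 10.78 and 10.91 in YYFF L8. In WT cells it was 10.26 and 10.26 in WT L0, 10.57 and 10.68 in WT L4, and 11.43 and 11.35 in WT L8. The 2 WT L8 arrays were the highest of the 12. The change from L0 was 0.38 ± 0.09 in YYFF L4 (adjusted p = 0.0136) and 0.43 ± 0.09 in YYFF L8 (adjusted p = 0.00649), and 0.37 ± 0.09 in WT L4 (adjusted p = 0.0304) and 1.13 ± 0.09 in WT L8 (2.19-fold, adjusted p = 3.22e-05). WT L8 was above WT L4 by 0.77 ± 0.09 (adjusted p = 0.000725). The other 2 probes gave 0.64 ± 0.15 and 0.65 ± 0.12 in YYFF L8 and 0.96 ± 0.15 and 1.24 ± 0.12 in WT L8, so all 3 probes moved alike. The WT L4 call was lost without any 1 array (0.31 to 0.42), and the calls in WT L8 and YYFF L8 were held.

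**Figure D3:**
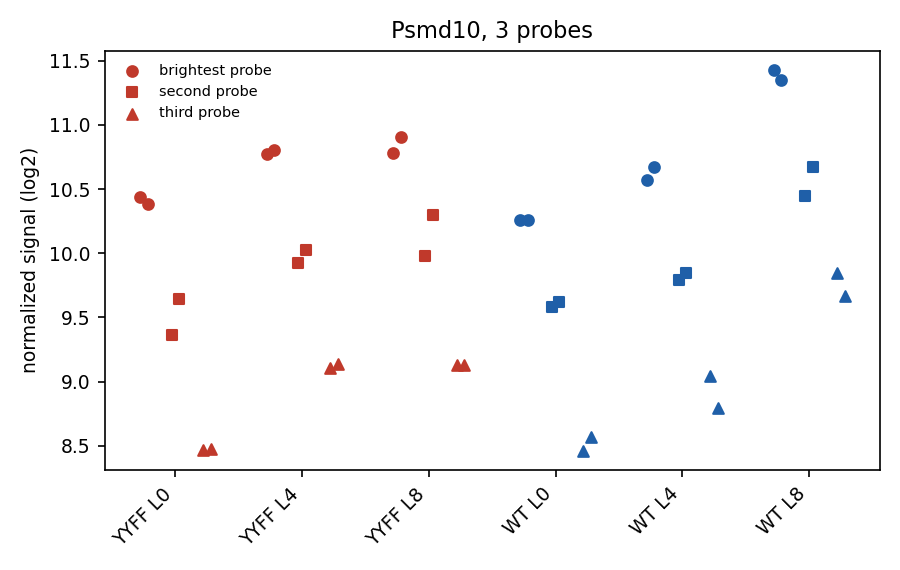
Normalized log2 signal of the 3 Psmd10 probes (circles, squares and triangles, from the brightest to the dimmest) on each array of YYFF (red) and WT (blue) cells after 0, 4 or 8 platings on laminin. Each probe is highest in WT L8, and each rises above its L0 level in both clones.

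Psmd10 lies on chromosome X. Xist, the non-coding RNA of X inactivation, did not exceed background on any YYFF array (0 of 6), and its mean log2 signal was 8.64 ± 0.04 in WT L0, 8.14 ± 0.11 in WT L4 and 7.51 ± 0.07 in WT L8 (± SD, n = 2 each). Its log2 change in WT L8 was -1.13 ± 0.11 (adjusted p = 0.000102), and its part in the Psmd10 result was not tested. Hprt, also on the X, had 12.19 ± 0.07 in WT L8 and 12.29 ± 0.07 in WT L0. Pgk1, on the X as well, had 7.75 ± 0.18 in WT L8 and 6.92 ± 0.44 in WT L0 (± SD, n = 2 each). Its log2 change in WT L8 was 0.83 ± 0.41 and did not pass (adjusted p = 0.151).

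Set side by side without Psmd8, the clones differed in fewer subunit genes at L0 than at L8, which also held over all genes. Of the 30, 0% were higher and 6.67% lower in YYFF cells at L0, and 13.3% and 10% at L8. These shares lay below those of all genes, which were 17.2% and 19.8% at L8. In YYFF L0, 0 of 30 were higher than in WT L0 in the limma test (0 at an unadjusted p under 0.05) and 2 were lower, Psmb3 at -0.39 ± 0.12 (adjusted p = 0.0422) and Psmd12 at -0.30 ± 0.09 (adjusted p = 0.0361). Over all genes 14.7% were higher and 12.2% lower. The median of the 30 was -0.15, beside -0.04 over all genes, and 5 of 30 were above 0, beside 45.7% of all genes. The Psmb3 and Psmd12 calls were lost without any 1 of the 4 arrays (-0.41 to -0.37 and -0.34 to -0.25). In YYFF L4, Psmd5 (0.58 ± 0.13) and Psmd11 (0.49 ± 0.15) were higher than in WT L4 and Psmb6 (-0.64 ± 0.14) was lower, where 18.2% of all genes were higher and 19.7% lower. Psmb6 was held without any 1 array, Psmd11 was lost without each (0.42 to 0.56), and Psmd5 without WT L4 replicate 2 (0.46) or YYFF L4 replicate 1 (0.47).

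At L8 the calls ran both ways. Higher in YYFF L8 than in WT L8 were Psmd14 (0.67 ± 0.13, adjusted p = 0.00344), Psmd11 (0.54 ± 0.15), Psmc1 (0.48 ± 0.10) and Psmd7 (0.42 ± 0.12). Lower were Psmd10 (-0.55 ± 0.09, adjusted p = 0.00173), Psmb7 (-0.46 ± 0.15) and Psmb1 (-0.42 ± 0.11), where 17.2% of all genes were higher and 19.8% lower. For Psmb7 the dimmer probes gave 0.05 ± 0.13 and 0.20 ± 0.12 in this comparison. Psmd14, Psmc1 and Psmd10 were held without any 1 array. Psmd11 was lost without WT L8 replicate 1 or YYFF L8 replicate 2 (0.37 each), Psmb1 without WT L8 replicate 2 (-0.39) or YYFF L8 replicate 1 (-0.32), Psmb7 without either WT L8 replicate (-0.36 and -0.56) or YYFF L8 replicate 1 (-0.25), and Psmd7 without each array (0.41 to 0.44). The 5 α ring genes had differences of -0.27 to -0.09 at L0 and of -0.06 to 0.20 at L8, none of which passed.

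The change with laminin itself was then compared between the clones, as the YYFF change minus the WT change. At L4, 2 of the 30 genes differed, both with the larger change in YYFF: Psmd5 (0.70 ± 0.18, adjusted p = 0.0246) and Psmd11 (0.68 ± 0.22, adjusted p = 0.0495), where 10.3% of all genes differed upward and 13.4% downward. At L8, 7 differed upward and 2 downward, where 14.4% and 17.5% of all genes did. Under median scaling 1 of all 31 members differed upward at L8 and 0 downward, where 6.83% and 12.9% of all genes did, and the median of the 31 was 0.39, beside 0.24. At L4 it was 0.44, beside 0.18. The upward calls at L8 were all lost without YYFF L0 replicate 1, WT L0 replicate 2 or WT L8 replicate 1, each left out alone. The upward ones were Psmd11 (0.74 ± 0.22), Psmd7 (0.61 ± 0.18), Psmd14 (0.59 ± 0.18), Psmb3 (0.56 ± 0.17), Psmc5 (0.46 ± 0.15), Psmc1 (0.45 ± 0.15) and Psmd12 (0.43 ± 0.13), and the downward ones were Psmd10 (-0.70 ± 0.13) and Psmb1 (-0.49 ± 0.15). The median of the 30 was 0.18 at L4 and 0.23 at L8, beside 0.02 and 0.03 over all genes. Psma5 and Psma7 did not pass here. Of those whose change was also computed without each of the 8 arrays in turn, Psmd10 was held throughout. The Psmd11 call at L4 was lost without each array (0.60 to 0.77), and the others were lost without 5 to 7 of the 8 arrays, with values of 0.57 to 0.72 for Psmd5 at L4 and, at L8, of 0.57 to 0.79 for Psmd11, 0.47 to 0.61 for Psmd7, 0.47 to 0.61 for Psmd14, 0.38 to 0.59 for Psmb3, 0.35 to 0.48 for Psmc5 and -0.51 to -0.39 for Psmb1. These comparisons share arrays with those within each clone.

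The interferon-inducible form of the proteasome went the other way. The subunits Psmb8, Psmb9 and Psmb10 replace Psmb5, Psmb6 and Psmb7 in the immunoproteasome, which cuts peptides for display to T cells. Psmb9 had log2 signals of 8.25 and 8.45 in YYFF L0, 5.04 and 5.11 in YYFF L4, and 5.13 and 5.45 in YYFF L8, and 7.45 and 7.48 in WT L0, 6.80 and 6.62 in WT L4, and 5.29 and 5.51 in WT L8. It was not above background in YYFF L4, YYFF L8 or WT L8. Against L0 it was lower by at least 6.64-fold in YYFF L4 (adjusted p = 3.57e-07), at least 6.29-fold in YYFF L8 (adjusted p = 4.33e-07) and at least 3.88-fold in WT L8 (adjusted p = 9.44e-06). In WT L4 its log2 change was -0.76 ± 0.14 (adjusted p = 0.00723).

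Psmb10 had 9.77 and 9.75 in YYFF L0, 9.36 and 9.43 in YYFF L4 and 9.20 and 9.36 in YYFF L8, a fall of 0.48 ± 0.10 at L8 (adjusted p = 0.00528). In WT cells it was higher by 0.39 ± 0.10 in WT L4 (adjusted p = 0.0316), and in WT L8 its change was -0.37 ± 0.10 (adjusted p = 0.0197). Psmb8 was above background on both YYFF L0 arrays and 1 WT L0 array only, and was lower by at least 1.08-fold in YYFF L4 (adjusted p = 0.0315) and at least 1.02-fold in YYFF L8 (adjusted p = 0.0295). Psmb11 and Psma8, subunits known from thymus and testis, had no probe. Of 3 tested members of this list, then, 3 were lower in YYFF L4 and 3 in YYFF L8 than in YYFF L0. In WT cells 1 was higher and 1 lower at L4 and 2 were lower at L8. Over all genes 17.2% were lower in YYFF L4 and 19.3% in YYFF L8. In WT L4 7.49% were higher and 7.99% lower, and in WT L8 17.7% were lower.

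The interferon-inducible activator of the proteasome went with them in YYFF cells but not in WT cells. Psme1 and Psme2 encode the PA28 ring, which opens the 20S core without ubiquitin or ATP. Psme1 had 10.99 and 11.18 in YYFF L0, 10.01 and 10.12 in YYFF L4, and 9.73 and 9.87 in YYFF L8, against 11.42 and 11.49 in WT L0, 11.94 and 11.74 in WT L4, and 11.51 and 11.54 in WT L8. Its YYFF L8 change was -1.28 ± 0.11 (adjusted p = 3.17e-05), and the test of the difference between the clones' changes gave -1.35 ± 0.16 (adjusted p = 0.000287). Psme2 changed by -0.76 ± 0.12 in YYFF L8 (adjusted p = 0.00104), and that difference was -1.06 ± 0.17 (adjusted p = 0.00142). At L4 both were higher in WT cells, Psme1 by 0.39 ± 0.11 (adjusted p = 0.0499) and Psme2 by 0.42 ± 0.12 (adjusted p = 0.0445). Psme4, a nuclear activator, was higher in YYFF L4 by 0.38 ± 0.12 (adjusted p = 0.0361), Psme3 had a log2 change of -0.61 ± 0.17 in WT L8 (adjusted p = 0.0195), and Psmf1 had no probe.

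**Figure D4:**
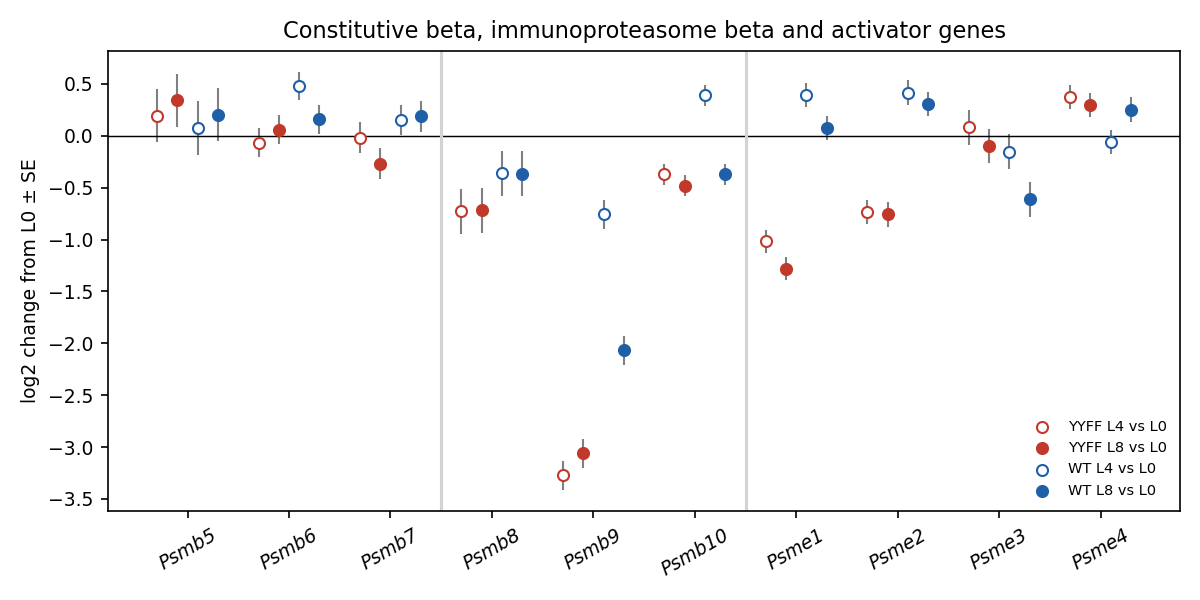
Log2 change from L0 ± SE at L4 (open) and L8 (filled) in YYFF (red) and WT (blue) cells for the constitutive catalytic β genes (left), their interferon-inducible counterparts (middle) and the activator genes (right). Psmb9 falls furthest in both clones, and Psme1 and Psme2 fall in YYFF cells only; the Psmb8 and Psmb9 values after laminin lie at or below background, apart from Psmb9 in WT L4.

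Other proteins that work with the proteasome were followed as lists. Of 5 tested proteins bound to the 19S particle, 3 were higher at both times in YYFF cells (60%), where 14.4% and 17.1% of all genes were. The median changes of the 5 were 0.32 at L4 and 0.54 at L8, beside 0.02 and 0.03 over all genes. Ecpas, which holds core and cap together, changed by 0.43 ± 0.14 and 0.88 ± 0.14 (adjusted p = 0.045 and 0.00127), the deubiquitinase Uchl5 by 0.44 ± 0.13 and 0.54 ± 0.13 (adjusted p = 0.0359 and 0.013), and the ubiquitin ligase Ube3c by 0.32 ± 0.10 and 0.36 ± 0.10 (adjusted p = 0.0329 and 0.0169). In WT cells 0 of 5 passed at L4, and Ube3c was lower at L8, with a log2 change of -0.31 ± 0.10 (adjusted p = 0.0332). Over all genes 7.49% were higher and 7.99% lower in WT L4, and 18.4% and 17.7% in WT L8. Sem1 and the deubiquitinase Usp14 passed in no comparison, and Adrm1, Akirin2 and Txnl1 were not tested.

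Of 4 assembly chaperones of the core, Psmg1 was higher in YYFF L8, by 0.63 ± 0.11 (adjusted p = 0.00239), and lower in YYFF L0 than in WT L0, by 0.69 ± 0.11 on the log2 scale (adjusted p = 0.00225). Psmg2, Psmg3 and Pomp did not pass, and Psmg4 and Paaf1 were not tested. Among 9 tested shuttle receptors and partners of the segregase p97, 2 were higher and 1 lower in YYFF L4, and 4 higher and 1 lower in YYFF L8. These were 22.2% and 11.1% at L4, beside 14.4% and 17.2% of all genes. At L8 they were 44.4% and 11.1%, beside 17.1% and 19.3%. Vcp, which encodes p97, changed by 0.45 ± 0.09 in YYFF L4 (adjusted p = 0.00402) and 0.31 ± 0.09 in YYFF L8 (adjusted p = 0.0233). In WT cells 0 were higher and 1 lower at L4, and 0 higher and 2 lower at L8. The lower shares were 11.1% and 22.2%, beside 7.99% and 17.7% of all genes. Zfand2a, a stress-induced protein of the 19S particle, had a change of 0.40 ± 0.10 in YYFF L8 (adjusted p = 0.0102) and of -0.70 ± 0.10 in WT L8 (adjusted p = 0.000587), and the difference between these changes was 1.10 ± 0.14 (adjusted p = 0.000347). Faf2 was the lower gene in YYFF cells, by -0.68 ± 0.14 at L4 and -0.65 ± 0.14 at L8, and Nsfl1c (0.48 ± 0.11) and Faf1 (0.33 ± 0.10) were the others higher at L8.

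Of 4 tested genes for the control of proteasome transcription, 1 was higher than L0 both in YYFF L4 and in YYFF L8 and 0 were lower. Over all genes 14.4% and 17.1% were higher. Nfe2l1 lay within 10.67 and 10.80 on the 6 YYFF arrays and passed in no comparison. Nfe2l2 did not pass within either clone and was higher in YYFF L8 than in WT L8 by 0.76 ± 0.18 (adjusted p = 0.00848). Maff, a small partner protein of both, was higher in YYFF L4 by 0.54 ± 0.17 (adjusted p = 0.0415) and in YYFF L8 by 0.68 ± 0.17 (adjusted p = 0.0142). Mafg, a relative of Maff, had log2 changes of -0.34 ± 0.10 in WT L4 and -0.59 ± 0.10 in WT L8 (adjusted p = 0.0428 and 0.00148). Of the 6 genes for ubiquitin and its activation 0 could be tested.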

How the data were processed

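Per the labels' protocols, 100 ng of RNA from each of 12 samples was amplified and hybridised. The authors deposited non-normalized signal intensities and detection p-values for 25697 probes, and a processed intensity table, used as an alternative. In the latter, 11 of 12 columns share 1 distribution and the column of the second WT L0 array holds the same values as before normalization. The submitters' processing notes name limma, and further steps of the authors are not given here. The deposited intensities were corrected by normexp (offset 16, background mean and SD inferred from detection p-values, which shrinks folds of dim probes), quantile-normalized and log2-transformed in limma 3.58.1, R 4.3.3. Probes with detection p under 0.05 on at least 2 arrays (12974) were kept, and the brightest per gene was tested (8891 genes). Symbols came from the platform annotation (23978 probes with 1 symbol, 1719 with none), updated through RefSeq GRCm38.p6 by Entrez ID (23962) or accession (9).

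Groups and replicate numbers came from the titles. A model with 1 coefficient per group (6 residual and 2.91 prior degrees of freedom) gave 11 comparisons. Their p-values were adjusted by Benjamini-Hochberg across those 8891 genes (threshold 0.05). The model was tested on simulated data with fewer changed genes than were called here. For YYFF L8 vs L0 it found 19.4% of 67 log2 changes of 0.5. It found 77.6% of 67 changes of 1 and 95.5% of 66 changes of 2. Small changes can therefore go uncalled. Nothing in the labels states that the 2 samples of a group were separate cultures. Their spread, on which the p-values rest, may therefore be technical, and the number of arrays limits the precision. Members, lists and tests were chosen with earlier results of these data known. Genes named are all members, up to 6 per direction and comparison with full values, up to 4 per related list past the threshold, and neighbours of Psmd8. Other settings tried were median scaling, no background correction, the authors' table, other detection filters, the mean of probes, the compared arrays alone, replicate blocks and leaving out each array.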

Additional observations from a re-analysis of the deposited data

Results flagged for a closer look

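For 13 results the change from L0 differed between the clones by the test of that difference itself (YYFF change minus WT change, log2, limma adjusted p under 0.05). Of the 31 members, 9.68% differed upward and 0% downward at L4, where 10.3% and 13.4% of all genes did. At L8 the shares were 25.8% and 6.45%, beside 14.4% and 17.5% of all genes. Under median scaling 1 of 31 members was called at each time. At L4 the difference was 1.55 for Psmd8, 0.70 for Psmd5 and 0.68 for Psmd11. At L8 it was 1.34 for Psmd8, 0.74 for Psmd11, 0.61 for Psmd7, 0.59 for Psmd14, 0.56 for Psmb3, 0.46 for Psmc5, 0.45 for Psmc1 and 0.43 for Psmd12, in favour of YYFF, and -0.49 for Psmb1 and -0.70 for Psmd10, in favour of WT.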

How the results depend on the processing

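Psmd8 in YYFF vs WT at L0, L4 and L8, Psma5 in YYFF L4 vs L0, Psma7 in YYFF L8 vs L0, Psmd14 in YYFF L8 vs L0 and vs WT L8, and Psmd10 in WT L8 vs L0, WT L8 vs L4 and YYFF vs WT at L8 kept their call and direction under all 13 alternatives run for each. Over all 31 members the calls, higher or lower, numbered 8 for YYFF L4 vs L0 and 10 for YYFF L8 vs L0. Of all genes 14.4% and 17.1% were higher and 17.2% and 19.3% lower. In WT cells the calls numbered 2 for L4 vs L0 and 3 for L8 vs L0. Of all genes 7.49% and 18.4% were higher and 7.99% and 17.7% lower. For YYFF vs WT the calls numbered 3, 4 and 8 at L0, L4 and L8. Of all genes 14.7%, 18.2% and 17.2% were higher and 12.2%, 19.7% and 19.8% lower. The interactions (YYFF change minus WT change) had 3 calls at L4, beside 10.3% and 13.4% of all genes. At L8 they had 10, beside 14.4% and 17.5%. They were fewer under median scaling: 2 for YYFF L4 vs L0, 2 for YYFF L8 vs L0, 1 for WT L4 vs L0, 1, 2 and 3 for YYFF vs WT at L0, L4 and L8, and 1 for each interaction. With the compared arrays alone the calls were 4 for YYFF L8 vs L0, 0 for WT L4 vs L0 and 1 for WT L8 vs L0. Of all genes 11.8%, 2.71% and 16.7% were higher and 14.5%, 2.8% and 16.2% lower. The calls were 4 for YYFF vs WT at L8 and 4 for the interaction at L8. Of all genes 11.3% and 12.3% were higher and 14.1% and 16.0% lower. The mean of probes gave 5 for YYFF L4 vs L0, where 14.8% of all genes were higher and 16.6% lower. No filter gave 1 for WT L4 vs L0, beside 4.0% and 4.16% of all genes. Leaving out 1 array gave 2 to 4 for YYFF L4 vs L0, 4 to 8 for YYFF L8 vs L0, 0 to 2 for WT L4 vs L0, 1 to 3 for WT L8 vs L0, 1 to 2, 2 to 4 and 5 to 8 for YYFF vs WT at L0, L4 and L8, and 0 to 2 and 1 to 6 for the interactions at L4 and L8. In each of these fits a smaller share of all genes was called, too, than with every array in the model. A lone array was assumed to vary like the other groups. Psmd8 turned sign between the later times, where it never passed: leaving out 1 array gave -0.22 to 0.31 for WT L8 vs L4, below 0 without WT L4 replicate 1 (-0.09) or WT L8 replicate 2 (-0.22), and for YYFF L8 vs L4 -0.35 to 0.04, above 0 without YYFF L8 replicate 1 (0.038). The causes were not tested.

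The titles' replicate numbers do not state a pairing; over 15 pairs of groups, same-numbered deviations correlated with r of 0.02 to 0.35 (13 over 0.1). A replicate block by title numbers gave 11 members higher and 0 lower in YYFF L4, where 16.7% of all genes were higher and 18.7% lower. In YYFF L8 it gave 13 higher and 0 lower, beside 19.7% and 20.7%. For the interaction at L4 it gave 5 upward and 0 downward, beside 12.4% and 14.7%. By description numbers (r of -0.35 to 0.23), the block gave 1 call for WT L4 vs L0, 1 for WT L8 vs L0 and 1 for YYFF vs WT at L0. Of all genes 6.58%, 17.4% and 14.0% were higher and 6.91%, 16.5% and 10.9% lower. For the interaction at L8 it gave 4 calls, beside 12.4% and 16.4% of all genes. Signal at background in a compared group limits Psmc6, Psmb8, Psmb9, Tap1, Tap2, Nlrc5, H2-K1, H2-D1, Xist, Zfp420, Kcnk6, Spred3 and Zfp30.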

Other observations

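Genes that work with the immunoproteasome in antigen display fell with it in YYFF cells. Of 10 listed, 8 were tested, and 8 were lower than L0 both in YYFF L4 and in YYFF L8, where 17.2% and 19.3% of all genes were. Of these, Tap1, Nlrc5, H2-K1 and H2-D1 were above background on 0 of 2 YYFF L4 arrays, and Tap1, Nlrc5 and H2-K1 on 0 of 2 YYFF L8 arrays. Their falls are therefore bounds, of at least 4.01-, 2.03-, 1.97- and 4.82-fold in YYFF L4. In WT cells 3 were lower at L4 and 5 at L8, where 7.99% and 17.7% of all genes were. Tap1 and Tap2 form the peptide transporter: Tap2 changed by -2.94 ± 0.15 in YYFF L8 (adjusted p = 7.6e-07), and was lower by at least 4.47-fold in WT L8 (adjusted p = 2.75e-06), where it was not above background. Irf1, a transcription factor of the interferon response, changed by -0.87 ± 0.10 in YYFF L8 (adjusted p = 0.000126) and differed from the WT change by -0.98 ± 0.14 (adjusted p = 0.000682).

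Other complexes of many subunits were followed over the same comparisons. Over all genes 17.1% were higher and 19.3% lower in YYFF L8 than in YYFF L0. In WT L8 18.4% were higher and 17.7% lower than in WT L0. Of 9 genes of the COP9 signalosome, a relative of the proteasome lid, 0 passed in YYFF L8 vs L0 in the limma test (0 at an unadjusted p under 0.05), and Gps1 (-1.11 ± 0.12) and Cops8 (-0.41 ± 0.10) were lower in WT L8 than in WT L0. Of 10 tested genes of eIF3, a translation initiation factor that shares the lid's architecture, 0 were higher (2 at an unadjusted p under 0.05) and 1 lower in YYFF L8 (Eif3a, -0.89 ± 0.12), and 4 were lower in WT L8. Of 8 genes of the CCT chaperonin, 0 passed in YYFF L8 (0 at an unadjusted p under 0.05), and 4 were lower in WT L8. Most changes from L0 in YYFF L8 were nevertheless above 0, in 8 of 9 COP9 genes, 6 of 10 eIF3 genes and 7 of 8 CCT genes. The YYFF change minus the WT change at L8 had a median of 0.31 for COP9 (2 higher, 0 lower), 0.33 for eIF3 (2 higher, 0 lower) and 0.57 for CCT (3 higher, 0 lower), beside 0.23 for the 30 subunit genes without Psmd8. Over all genes this median was 0.03, with 14.4% higher and 17.5% lower. How these counts differ from those of the proteasome was not tested.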
